A study of Mus musculus with 6 samples.

Results

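The genes described are 33 enzymes and transporters of glucose breakdown: the hexokinases and phosphofructokinases, the lower glycolytic enzymes, the lactate dehydrogenases, the monocarboxylate transporters, and enzymes of pyruvate dehydrogenase and the citric acid cycle. Member probe sets were those whose gene symbol in the platform annotation was on that list, and counts and medians of members are over genes, each read by its brightest tested probe set. Probe sets carrying the symbol were found for 31 of the 33 genes, 71 probe sets among the 45101 on the array. Of these, 62 were bright enough to be tested, and they covered 29 of the 12614 named genes tested. Gpi1 and Eno1 were not analysed here. Gapdh was read by 3 control probe sets alone, and its values are given without a test. Slc16a3 lay below the filter on dim probe sets and is described apart.

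The tissue was lumbar cord at level L1 from male SCID mice, which lack functional T and B lymphocytes and therefore accept human cells. Mice entered the study at 9 weeks of age, and the cord was taken 6 weeks after injection, at 15 weeks. N-inv mice had received Capan-1, an established human pancreatic cancer line, by injection into the left sciatic nerve. SC mice carried this line under the skin, and PBS mice were the vehicle model without tumour cells. Each group had 2 Affymetrix 3′ expression arrays, 6 in all, hybridised with biotin-labelled cRNA from 100 ng of total RNA. No label says whether both arrays of a group are different animals, so a p-value here reflects only how far these samples spread. In N-inv and PBS that spread may be technical, and the SC arrays are taken up below.

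Glycolysis splits glucose into pyruvate in the cytosol. Hexokinase, phosphofructokinase and pyruvate kinase catalyse its irreversible steps. Pyruvate is then either reduced to lactate by lactate dehydrogenase or carried into the mitochondrion, where pyruvate dehydrogenase and the citric acid cycle oxidise it. In nervous tissue astrocytes are known for active glycolysis and lactate release, and neurons and myelinating cells can take up lactate through monocarboxylate transporters.

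The arrays were not of equal standing. Correlations between arrays over the tested probe sets lay between 0.965 and 0.973 for pairs with an SC array and between 0.981 and 0.984 for the other pairs. The labels give all mice as male, but Xist, the long RNA of the inactive X in females, read 13064.6 on SC replicate 2 against 138.6 to 228.5 on the other 5 arrays. That array goes against its label, and it was kept. With Xist at 228.5 and 13064.6, the SC arrays are not repeats of the same sample. For N-inv and PBS this is unknown. For most members described, and for the member medians, differences that involve the SC group are also given without it. Values are intensities scaled so that every array had the same median of 256.2, and differences are differences of mean log2(intensity + 25.6), called log2 differences below. All 6 Hox genes listed for the lumbar cord were above the filter. Hoxd10 was highest in SC, at 4776.9 and 4439.1, where the other arrays ranged from 2337.7 to 3139.1. Its log2 difference from PBS was 0.76 (limma, adjusted p = 0.507), or 0.81 without SC replicate 2. Hoxc8 was lowest in SC, with -0.31 against PBS, or -0.39 without SC replicate 2. Of the 6 Hox genes, 2 lay higher and 4 lower in SC than in PBS. Whether the cord level taken differed between groups was not tested. Of 6 skeletal muscle markers, Ckm, Myh4, Myh2, Tnnt3 and Mylpf lay below the filter and Acta1 alone passed. It read 268.9 and 301.7 in N-inv, 78.4 and 164.3 in SC, and 241.3 and 284.9 in PBS. Its log2 difference was -1.03 in SC against PBS (limma, adjusted p = 0.516), or -1.47 without SC replicate 2. In SC against PBS 2 of 3 blood markers tested and 2 of 3 nerve root markers were higher. The lower ones were Alas2 at -0.33 and Pmp2 at -2.87, or -1.69 and -1.51 without SC replicate 2. The part of dissection or blood content in the members' values was not tested.

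Promoter sequence is shown for the 4 members with a window among those whose values differed most between groups. The windows are the 250 bases before a RefSeq start of the gene (GRCm38.p6), 5′ to 3′ on the strand of the gene. They are chr6:82774455-82774704 (minus strand) for Hk2, chr7:46845554-46845803 (plus strand) for Ldha, chr3:104638414-104638663 (plus strand) for Slc16a1 and chr11:120948817-120949066 (plus strand) for Slc16a3. Capitals mark ACGTG and GCGTG on either strand, the core bound by hypoxia-inducible factor, whose known targets include glycolytic genes.
Hk2: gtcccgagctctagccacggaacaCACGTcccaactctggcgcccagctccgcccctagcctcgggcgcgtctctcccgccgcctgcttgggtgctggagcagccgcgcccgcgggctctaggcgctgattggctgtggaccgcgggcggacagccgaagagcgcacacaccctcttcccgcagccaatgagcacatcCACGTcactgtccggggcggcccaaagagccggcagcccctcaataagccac
Ldha: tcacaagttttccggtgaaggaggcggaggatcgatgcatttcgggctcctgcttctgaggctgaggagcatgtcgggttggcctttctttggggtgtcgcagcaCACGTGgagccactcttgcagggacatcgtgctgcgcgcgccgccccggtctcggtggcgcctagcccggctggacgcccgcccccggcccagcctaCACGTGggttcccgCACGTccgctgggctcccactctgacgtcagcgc
Slc16a1: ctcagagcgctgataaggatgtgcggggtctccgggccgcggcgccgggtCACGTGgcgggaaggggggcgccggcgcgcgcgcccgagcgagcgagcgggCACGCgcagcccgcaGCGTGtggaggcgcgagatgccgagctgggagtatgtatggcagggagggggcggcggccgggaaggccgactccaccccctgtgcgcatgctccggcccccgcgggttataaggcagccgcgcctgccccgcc
Slc16a3: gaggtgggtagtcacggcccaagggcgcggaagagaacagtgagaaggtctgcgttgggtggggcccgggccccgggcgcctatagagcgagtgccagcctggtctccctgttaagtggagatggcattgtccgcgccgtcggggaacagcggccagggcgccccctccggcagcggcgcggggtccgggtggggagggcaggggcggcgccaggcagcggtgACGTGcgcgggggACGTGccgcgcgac
The Ldha window held 5 matches in 3 stretches and the Slc16a1 window 4 matches in 3 stretches, and the Hk2 and Slc16a3 windows held 2 matches each. A CACGTG stretch counts on both strands, and it is also the E-box read by other factors. Of all 32851 windows, 2.6% held 4 or more matches. RefSeq windows were matched for 31 of the 33 members, 47 windows in all. Of these, 36 held a match (76.6%), against 38.6% of all windows. CACGTG itself stood in 7 member windows (14.9%) and in 6.0% of all windows. Windows of the same gene can overlap and count more than once, as those of Ogdh did. By gene, 24 of the 31 members had a match in any window (77.4%), against 41.5% of all genes. These matches are letters in a window, and no binding was measured.

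The first comparison asks how L1 cord differs between mice with a tumour in the sciatic nerve and vehicle mice. Messages for glucose breakdown were nearly level. In limma, 0 of the 29 members passed the adjusted threshold of 0.05, as did 0 of the 27022 probe sets tested (0%), and every member had an adjusted p of 1.0. At an unadjusted p under 0.05 stood 1097 probe sets. Slc16a7 was the single member among them, but it entered the test through its PBS level, with an N-inv mean of 145.2 under the cutoff of 147.7, and its p is not read as evidence. Of the other 28 members, 0 reached that level. Over all genes tested, 2.19% were higher and 1.17% lower in N-inv at that level. Of the 29 members, 26 had a positive log2 difference and 3 a negative one, where 59.9% of all genes were positive. The member median was 0.08 and the median of all genes 0.04. The log2 difference was within 0.2 of zero for 25 members (86.2%), as for 73.1% of all genes. The sign count depended on the scaling between arrays. Positive members numbered 22 on the values as deposited and 17 after quantile normalization, against 51.3% and 51.6% of all genes.

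Both N-inv arrays lay above both PBS arrays for 18 of the 29 members (62.1%), against 25.2% of all genes tested, and below them for 1 member, Slc16a7, against 12.6%. This count depended on how the arrays were scaled. On the values as deposited it was 11 members, and after quantile normalization 6, where the share over all genes was 19.8% and 19.9%. The member median was 0.04 as deposited and 0.005 after quantile normalization. The 29 members were also bright: 23 of them lay among the brightest 10% of genes tested by signal, which depends on the probes as well as on the transcript. In that brightest group of 1262 genes, 39.7% had both N-inv arrays above both PBS arrays. As deposited that share was 31.4%, and after quantile normalization 18.2%. With arrays scaled to the common median, 79.7% of the same group had a positive log2 difference, the median was 0.07, and 90.2% lay within 0.2 of zero.

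**Figure D1:**
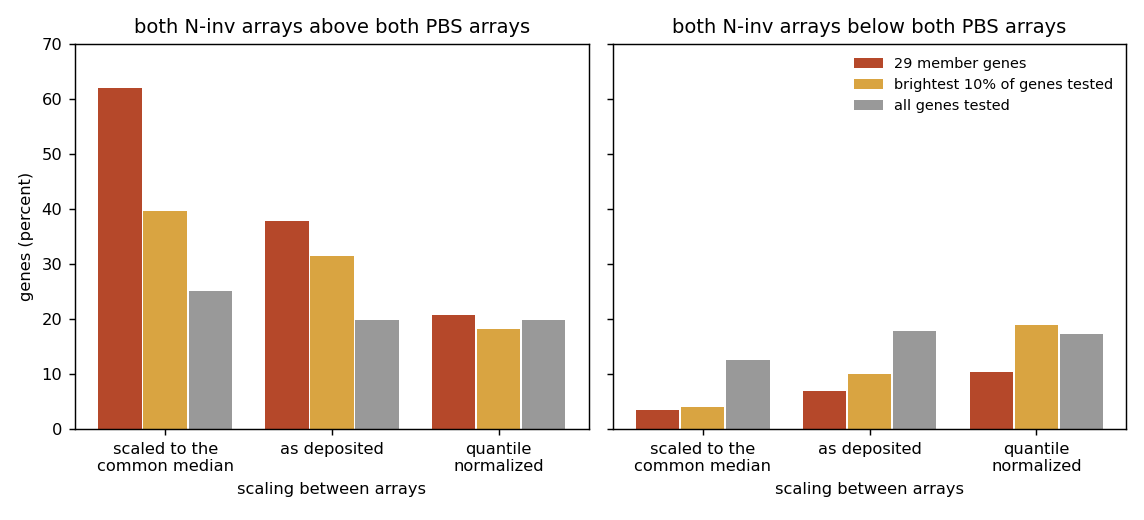
Percent of genes (vertical axis) in which both N-inv arrays lay above (left panel) or below (right panel) both PBS arrays, under 3 ways of scaling the arrays, for the 29 members, the brightest 10% of genes tested and all genes tested. The share of members with both N-inv arrays higher was 62.1% with arrays scaled to the common median, and the count was 11 of 29 members as deposited and 6 of 29 after quantile normalization.

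The second comparison sets the nerve tumour against the same cells under the skin. No member stood out at the adjusted threshold here either: in limma 0 of 29 members and 0 of 27022 probe sets (0%) passed, with 2417 probe sets at an unadjusted p under 0.05. Among the brightest probe sets the smallest adjusted p was 0.5, for Slc16a1, the single one with an unadjusted p under 0.05. Among all 62 member probe sets it was 0.445, for a dimmer probe set of Pfkp that lay lower in N-inv. Slc16a1 lay higher in N-inv; over all genes 6.08% were higher and 2.09% lower at that level. Log2 differences were positive for 18 members and negative for 11, and 60.5% of all genes were positive. The log2 difference was within 0.2 of zero for 26 members, as for 59.1% of all genes. The member median was 0.03 and that of all genes 0.06. Groups did not overlap for 6 members higher in N-inv and 1 lower, against 25.4% and 11.4% of all genes. As deposited these counts were 3 and 8, against 20.9% and 19.0% of all genes. In the brightest 10% of genes tested the shares were 18.2% and 9.59%, or 18.5% and 25.5% as deposited. Positive members numbered 12 as deposited and 16 after quantile normalization, where 51.1% of all genes were positive under each. Without SC replicate 2 the member median was 0.12, with 25 members positive and 4 negative. Without SC replicate 1 it was -0.06, a value that rests on SC replicate 2 alone.

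The third comparison sets the subcutaneous tumour against vehicle, and it shares the PBS arrays with the first. Again 0 of 29 members and 0 of 27022 probe sets (0%) passed in limma, with 2141 probe sets at an unadjusted p under 0.05. Calls without SC replicate 1 are not counted, as SC replicate 2 alone, the array whose Xist goes against its label, would then stand for SC. The smallest adjusted p of a member was 0.573, for Slc16a7, again the single member with an unadjusted p under 0.05 and again one that passed the filter through its PBS level. Over the other 28 members the smallest adjusted p was 0.679, for Slc16a1, and 0 reached an unadjusted p under 0.05. At that level 2.23% of all genes were higher and 4.47% lower. Of the members, 19 had a positive log2 difference and 10 a negative one, and 46.8% of all genes were positive. The log2 difference was within 0.2 of zero for 24 members, as for 61.7% of all genes. The member median was 0.06, that of all genes -0.02. Groups did not overlap for 8 members higher in SC and 3 lower, against 13.7% and 19.8% of all genes. In the brightest 10% of genes tested these shares were 16.6% and 10.3%, and 62.2% were positive. Positive members numbered 20 as deposited and 14 after quantile normalization, against 50.4% and 51.0% of all genes. The member median was -0.05 without SC replicate 2, with 11 members positive and 18 negative. It was 0.17 without SC replicate 1, a value that rests on SC replicate 2 alone.

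**Figure D2:**
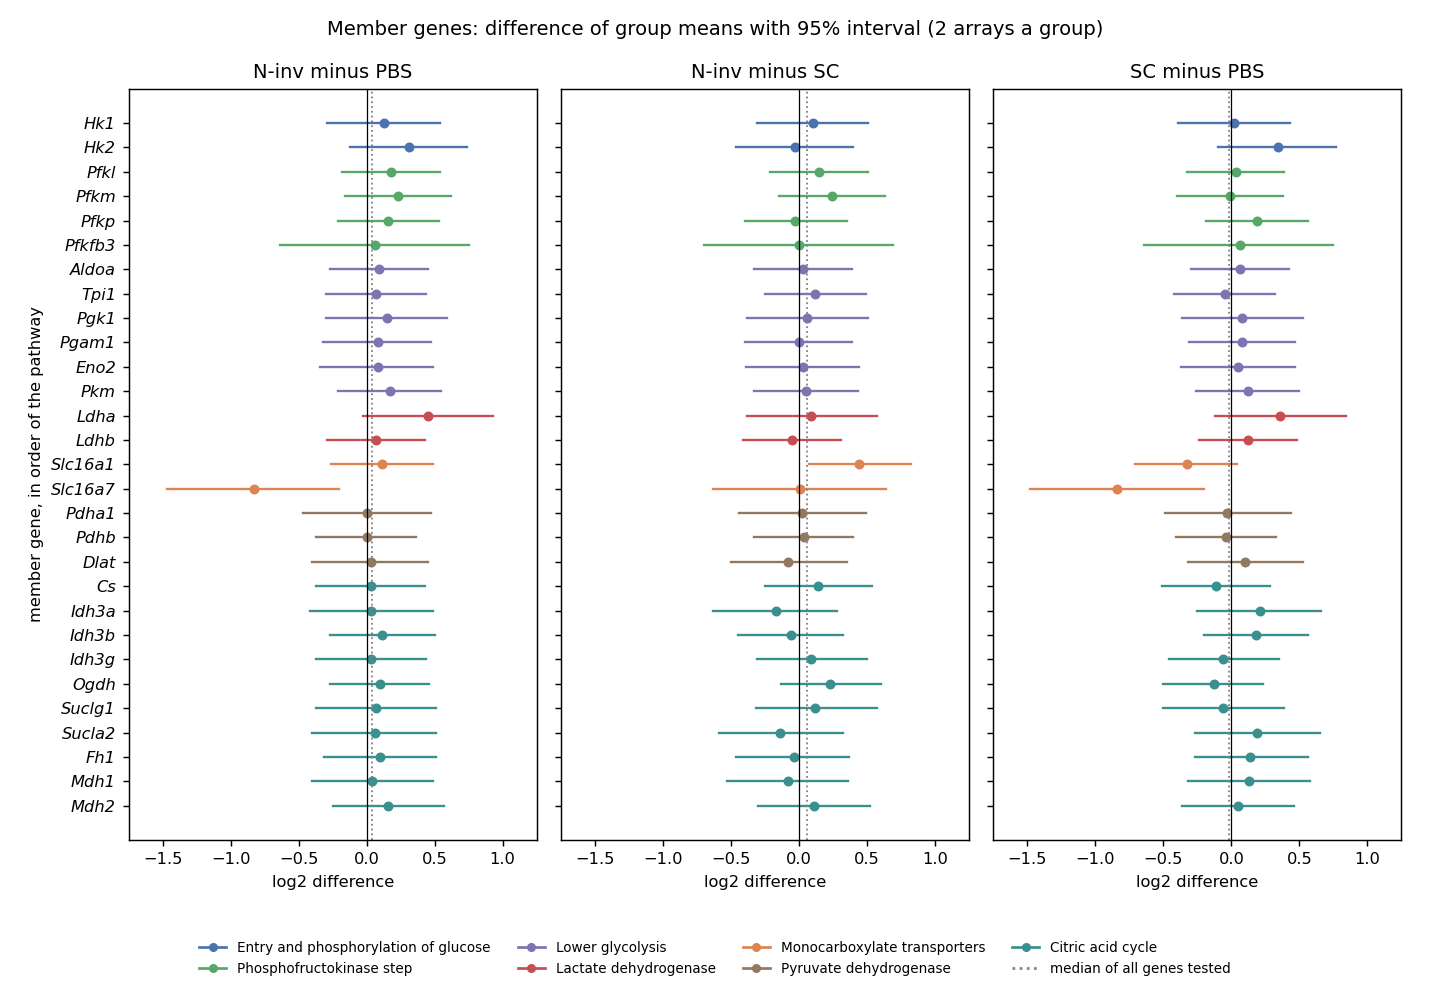
Log2 difference of group means (horizontal axis) with its 95% interval for the 29 tested members, in pathway order from top to bottom, for N-inv minus PBS, N-inv minus SC and SC minus PBS. Most points lie within 0.2 of zero, and the dotted line is the median of all genes tested. The widest are Slc16a7 at -0.83 and -0.84 and Ldha at 0.45 and 0.36, both against PBS, and Slc16a1 at 0.44 in N-inv minus SC. Slc16a7 is dim and passed the filter through its PBS level.

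The precision behind these values can be read from the intervals. The standard error of a member's log2 difference lay between 0.15 and 0.29, with a median of 0.17. In N-inv against PBS, the 95% interval stayed within a 1.5-fold difference in both directions for 23 of the 29 members. The 6 for which it did not were Hk2, Pfkm, Pfkfb3, Pgk1, Ldha and Slc16a7. In N-inv against SC and in SC against PBS it stayed within that bound for 22 members each. For the other 7 members in each, a difference of 1.5-fold lay inside the interval. Over the 6 arrays the SD of the log2 value was 0.05 to 0.5 across members, with a median of 0.12, and the median over all genes tested was 0.19.

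At the entry step, Hk1 encodes the main hexokinase of brain and cord, and Hk2 an isozyme known from highly glycolytic cells. Hk1 read 10641.8 and 9989.4 in N-inv, 8820.9 and 10451.0 in SC, and 8867.8 and 10065.9 in PBS. All groups overlapped for Hk1, with a log2 difference of 0.13 ± 0.17 (SE) in N-inv against PBS. Hk2 read 412.3 and 516.5 in N-inv, 450.5 and 491.7 in SC, and 392.5 and 344.6 in PBS. The 4 arrays of both tumour groups lay above the 2 PBS arrays. The Hk2 log2 difference was 0.31 ± 0.18 in N-inv against PBS (95% interval -0.12 to 0.74), and 0.34 ± 0.18 in SC against PBS (limma, adjusted p = 0.716). It was 0.28 in SC against PBS without SC replicate 2. In N-inv against PBS it was 0.15 without N-inv replicate 2 and 0.46 without N-inv replicate 1, and N-inv and SC did not separate, at -0.03 (0.03 without SC replicate 2).

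The phosphofructokinase step commits sugar to glycolysis, and Pfkl, Pfkm and Pfkp encode its liver, muscle and platelet subunits. Pfkm read 16731.7 and 16220.6 in N-inv, 14926.7 and 12953.4 in SC, and 14728.9 and 13381.6 in PBS. Both N-inv arrays were above the other 4, with a log2 difference of 0.23 ± 0.16 against PBS (95% interval -0.16 to 0.62) and 0.24 ± 0.16 against SC (limma, adjusted p = 0.711). Against SC it was 0.14 without SC replicate 2. Pfkl read 5249.9 and 5428.2 in N-inv, 4819.8 and 4793.5 in SC, and 4776.2 and 4635.6 in PBS, so both N-inv arrays were again highest, by 0.18 ± 0.15 against PBS and 0.15 ± 0.15 against SC, and still 0.15 against SC without SC replicate 2. A second Pfkl probe set differed by -0.01 in N-inv against PBS and the dimmest by 0.35.

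Pfkp read 10383.0 and 11072.8 in N-inv, 10357.7 and 11500.8 in SC, and 9498.6 and 9693.1 in PBS. The PBS arrays were lowest, with log2 differences of 0.16 ± 0.16 in N-inv against PBS and 0.19 ± 0.16 in SC against PBS (0.11 without SC replicate 2). A dimmer Pfkp probe set read 241.3 and 265.8 in N-inv, 384.6 and 483.2 in SC, and 360.1 and 331.9 in PBS. There both N-inv arrays were below the other 4, opposite to the brighter probe set, by -0.71 ± 0.18 against SC (95% interval -1.13 to -0.29, unadjusted p = 0.00554, limma, adjusted p = 0.445) and -0.41 ± 0.18 against PBS. Against SC it was -0.56 without SC replicate 2. The third Pfkp probe set differed by 0.32 in N-inv against SC (0.02 without SC replicate 2) and by -0.16 in N-inv against PBS. Pfkfb3 encodes the enzyme that makes fructose 2,6-bisphosphate, the strong activator of phosphofructokinase. It read 1816.9 and 1611.3 in N-inv, 1264.2 and 2319.3 in SC, and 1492.8 and 1810.8 in PBS. The SC arrays held both the lowest and the highest Pfkfb3 value, and no pair of groups separated. SC against PBS was 0.06, and -0.37 without SC replicate 2. A dimmer Pfkfb3 probe set, under the filter, read 99.1 and 123.1 in N-inv, 143.5 and 158.6 in SC, and 174.6 and 178.5 in PBS (limma without a filter, -0.57 ± 0.19 in N-inv against PBS, adjusted p = 0.939).

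In lower glycolysis all 6 tested genes had positive log2 differences in N-inv against PBS, from 0.07 for Tpi1, the triose phosphate isomerase, to 0.17 for Pkm. Pkm, pyruvate kinase, makes the pyruvate at the end of the path. It read 28095.2 and 30330.3 in N-inv, 26936.3 and 29629.4 in SC, and 26987.2 and 24997.3 in PBS. Both N-inv arrays were above both PBS arrays, by a log2 difference of 0.17 ± 0.16, and the SC arrays overlapped with both groups. SC against PBS was 0.12 for Pkm, and 0.05 without SC replicate 2. Tpi1 read 19476.7 and 21144.0 in N-inv, 19106.3 and 18239.4 in SC, and 19903.8 and 18722.2 in PBS, and N-inv and SC did not overlap, at 0.12 ± 0.16 (limma, adjusted p = 0.877), or 0.09 without SC replicate 2. Against PBS, Aldoa (aldolase), Pgk1 (phosphoglycerate kinase), Pgam1 (phosphoglycerate mutase) and the neuronal enolase Eno2 had log2 differences of 0.09, 0.15, 0.08 and 0.08 in N-inv. In SC the same 4 genes had 0.06, 0.08, 0.08 and 0.05 against PBS, and without SC replicate 2 the values were 0.09, -0.11, -0.05 and -0.03. Their 95% intervals all included zero.

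Gapdh, which oxidises glyceraldehyde phosphate, was on the array as 3 control probe sets along its transcript. The 3′ probe set read 45566.6 and 51085.2 in N-inv, 53460.7 and 52474.3 in SC, and 44173.8 and 46073.1 in PBS. The middle probe set read 32570.3 and 34581.7 in N-inv, 36500.9 and 36269.2 in SC, and 31537.4 and 31669.2 in PBS. The 5′ probe set read 14583.4 and 15124.6 in N-inv, 15177.3 and 15526.2 in SC, and 15662.1 and 15267.2 in PBS. The SC arrays were highest at the 3′ end and in the middle, by log2 differences of 0.23 and 0.20 against PBS, but at the 5′ end the value was -0.01. Leaving out SC replicate 2 made these 3 values 0.24, 0.21 and -0.03. In N-inv against PBS the same 3 probe sets gave 0.10, 0.09 and -0.06, and at the 5′ end both N-inv arrays were below the other 4. The 3′ to 5′ ratio, which rises as RNA degrades or labelling shortens it, read 3.12 and 3.38 in N-inv, 3.52 and 3.38 in SC, and 2.82 and 3.02 in PBS. The ratio of Actb, the actin control, was 3.32 and 3.42 in N-inv, 3.81 and 4.70 in SC, and 3.05 and 3.57 in PBS. The part of RNA quality in the members' differences was not tested.

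**Figure D3:**
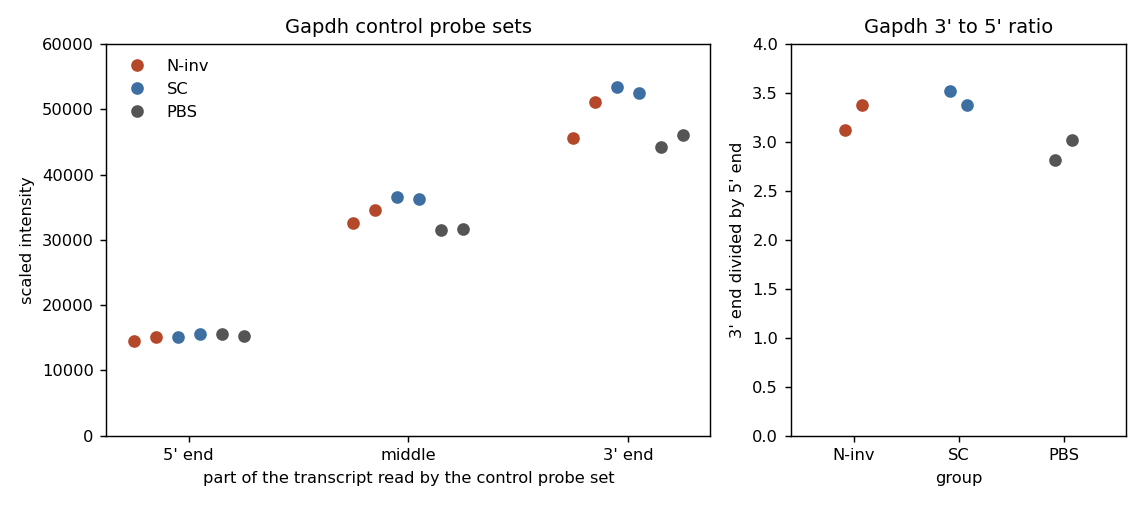
Left: scaled intensity (vertical axis) of the 3 Gapdh control probe sets, from the 5′ end to the 3′ end of the transcript, on each array of N-inv, SC and PBS. Right: 3′ to 5′ ratio on each array. At the 5′ end the arrays read 14583.4 to 15662.1 with N-inv just below the other groups, SC is highest at the 3′ end, and the ratio is 2.82 and 3.02 in PBS and 3.12 or more on the 4 other arrays.

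Lactate dehydrogenase interconverts pyruvate and lactate, and Ldha and Ldhb encode its muscle-type and heart-type subunits. Ldha read 8366.9 and 8879.7 in N-inv, 8152.2 and 7990.9 in SC, and 5312.6 and 7450.5 in PBS. All 4 tumour arrays were above both PBS arrays, which differed from each other. The log2 difference was 0.45 ± 0.20 in N-inv against PBS (ratio 1.37, 95% interval of the log2 difference -0.03 to 0.93, unadjusted p = 0.0605 in limma, adjusted p = 1.0), and 0.36 ± 0.20 in SC against PBS (limma, adjusted p = 0.726). Without SC replicate 2, SC differed from PBS by 0.37. The PBS arrays decided the size: N-inv differed from PBS by 0.21 without PBS replicate 1 and by 0.70 without PBS replicate 2, and SC by 0.12 and 0.60. Ldhb read 33533.2 and 33312.3 in N-inv, 33871.5 and 35451.2 in SC, and 31433.1 and 32200.4 in PBS. Both tumour groups were above PBS for Ldhb, by 0.07 ± 0.15 in N-inv and 0.12 in SC (0.09 without SC replicate 2), and the signs turned under quantile normalization, to -0.02 and -0.01.

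The Ldha values stood beside moves of other cell markers, none of which passed the adjusted threshold. In N-inv against PBS all 5 microglia markers tested were higher, with a median log2 difference of 0.50. Their summed intensity was 25090.7 and 20882.2 in N-inv, 13063.5 and 14761.3 in SC, and 15721.0 and 16378.9 in PBS, and 5 of 5 were lower in SC than in PBS, or 4 of 5 without SC replicate 2. Of 6 astrocyte markers, 5 were higher in N-inv than in PBS, with a median of 0.15, led by the filament gene Gfap at 1.45. Slc1a3 was lower, at -0.29. The astrocyte sum was 127778.1 and 126018.6 in N-inv, 83617.6 and 118654.1 in SC, and 98156.2 and 109246.3 in PBS. Neuron markers had a median of 0.05 in N-inv against PBS. The part of these cells in any member's value was not tested, and in bulk tissue fewer cells of a type and less RNA per cell cannot be told apart.

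**Figure D4:**
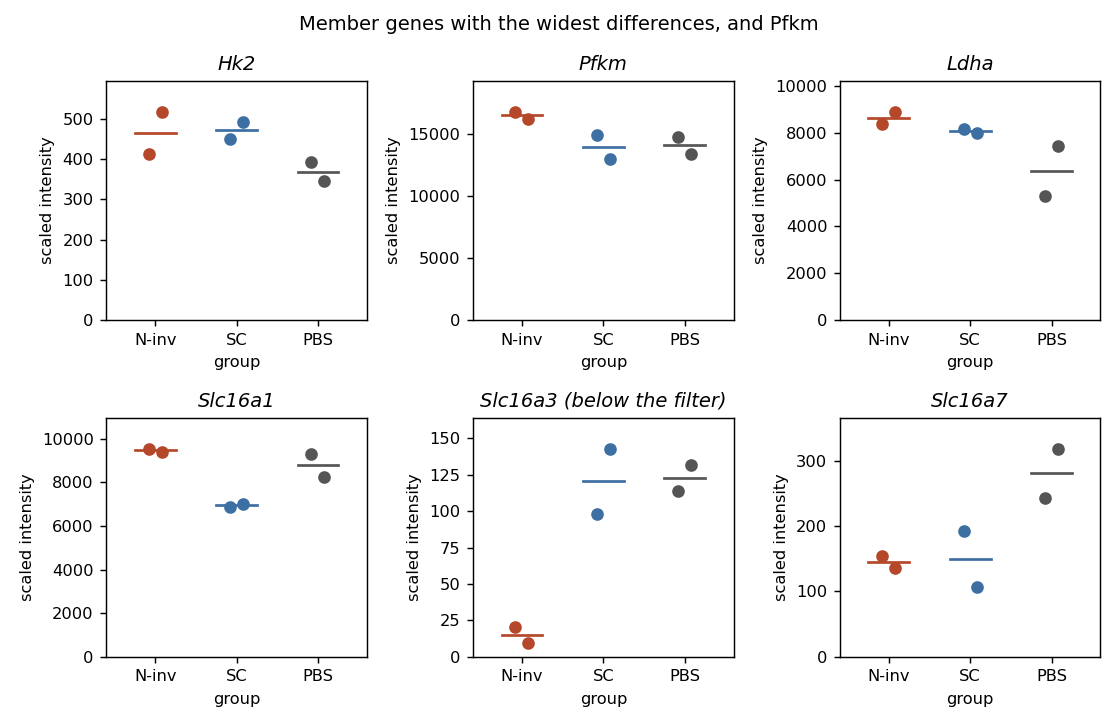
Scaled intensity (vertical axis, starting at 0) on each array in N-inv, SC and PBS for Hk2, Pfkm, Ldha, Slc16a1, Slc16a3 and Slc16a7, with points for the 2 arrays of a group and a line for their mean. Ldha and Hk2 are lowest in PBS, Slc16a1 is lowest in SC, and Slc16a3, below the filter, is lowest in N-inv, at 20.5 and 9.5. Slc16a7 is highest in PBS, the level through which it passed the filter.

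The monocarboxylate transporters move lactate and pyruvate across membranes, and the widest difference in each comparison belonged to 1 of their 3 genes. Slc16a1 encodes MCT1, known in endothelium, astrocytes and oligodendrocytes. It read 9530.4 and 9391.2 in N-inv, 6885.2 and 7025.3 in SC, and 9310.0 and 8236.4 in PBS. Both SC arrays lay below the other 4 and close to each other. The log2 difference was 0.44 ± 0.16 in N-inv against SC (95% interval 0.07 to 0.82, unadjusted p = 0.0268, limma, adjusted p = 0.5) and -0.33 ± 0.16 in SC against PBS (95% interval -0.71 to 0.04, adjusted p = 0.679). Without SC replicate 2 these were 0.46 and -0.35, and in N-inv against PBS the difference was 0.11 ± 0.16.

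Markers of cells known to use MCT1 were read beside it, and none passed the adjusted threshold. Of 5 oligodendrocyte markers, 3 were lower in SC than in PBS, with a median log2 difference of -0.41 and the lowest value of -1.02 for the myelin gene Mog. Mbp and Mobp were higher, at 0.18 and 0.07 (0.15 and -0.03 without SC replicate 2). With SC replicate 2 left out, 4 of 5 were lower, the median was -0.38 and Mog was -0.56. The summed oligodendrocyte intensity was 151081.1 and 160648.5 in SC and 144103.2 and 155365.5 in PBS. Of 4 endothelial markers, 2 were lower, the lowest being Slco1c1 at -0.56 (-0.53 without SC replicate 2). Cldn5 and Cdh5 were higher, at 0.39 and 0.46 (0.18 and 0.05 without SC replicate 2). The endothelial sums were 6080.6 and 6867.5 in SC and 6957.3 and 7175.5 in PBS. In N-inv against SC, where Slc16a1 differed most, all 4 endothelial markers lay higher in N-inv, with a median of 0.22 and Slco1c1 at 0.46. Of the oligodendrocyte markers 3 of 5 lay higher there, with a median of 0.29, Mog at 0.92 and Mag, another myelin gene, at 0.74. Mbp and Mobp lay lower, at -0.08 and -0.03. Of the astrocyte markers 5 of 6 lay higher, with a median of 0.19, and the water channel gene Aqp4 was at 0.55. Slc1a3 lay lower, at -0.16. The medians of these lists were 0.40, 0.43 and 0.38 without SC replicate 2. Their part in the Slc16a1 value was not tested.

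Slc16a7 encodes MCT2, the high-affinity carrier known in neurons. It read 154.2 and 136.2 in N-inv, 192.1 and 107.0 in SC, and 243.5 and 318.1 in PBS. The PBS arrays were above the other 4, and the 2 SC arrays differed from each other. The log2 difference was -0.83 ± 0.27 in N-inv against PBS (ratio 0.561, 95% interval -1.47 to -0.20, limma, adjusted p = 1.0) and -0.84 ± 0.27 in SC against PBS (95% interval -1.48 to -0.20, limma, adjusted p = 0.573). It was -0.48 in SC against PBS without SC replicate 2 and -1.20 without SC replicate 1. N-inv differed from SC by 0.01 ± 0.27, with -0.35 without SC replicate 2 and 0.36 without SC replicate 1. The N-inv mean of 145.2 lay under the filter cutoff of 147.7 and the SC mean was 149.5, so Slc16a7 passed the filter through its PBS level, its values were dim, and its intervals do not allow for that selection. The 6 neuron markers, all above the filter, had medians of 0.05 in N-inv against PBS and 0.03 in SC against PBS (-0.06 without SC replicate 2).

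Slc16a3 encodes MCT4, the carrier known for lactate export from astrocytes and other glycolytic cells. It read 20.5 and 9.5 in N-inv, 98.3 and 142.8 in SC, and 113.8 and 131.7 in PBS. All 6 values lay under the cutoff of 147.7, and both N-inv arrays were below the other 4. In limma run without the filter, the log2 difference was -1.88 ± 0.26 in N-inv against PBS (95% interval -2.53 to -1.23, adjusted p = 0.484) and -1.84 ± 0.26 in N-inv against SC (adjusted p = 0.397). SC differed from PBS by -0.04 ± 0.26. Leaving out SC replicate 2 gave -1.62 against SC for N-inv and -0.26 for SC against PBS. All of these values are dim, and no detection call was used here, so the size of the difference is uncertain.

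Pyruvate dehydrogenase joins glycolysis to the citric acid cycle. Its subunits Pdha1, Pdhb and Dlat hardly differed in N-inv against PBS: Pdha1 averaged 12278.3 ± 180.5 in N-inv, against 12302.4 ± 445.7 in PBS (SD, n = 2 each), and Pdhb 13489.6 ± 271.4 in N-inv, against 13510.5 ± 217.6 in PBS. Dlat differed by 0.03. In SC against PBS the 3 log2 differences were -0.03, -0.04 and 0.10, or -0.26, -0.10 and -0.07 when SC replicate 2 was left out. The spread between the SC arrays was wider, with Pdha1 at 10289.9 and 14182.8, while N-inv read 12150.7 and 12405.9, against 11987.3 and 12617.5 in PBS.

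The 10 genes listed for the citric acid cycle all had positive log2 differences in N-inv against PBS, from 0.03 to 0.16. Mdh1 among them encodes the cytosolic malate dehydrogenase. Cs, citrate synthase, opens the cycle, and read 16050.8 and 16415.1 in N-inv, 13340.2 and 16152.7 in SC, and 15763.0 and 16027.3 in PBS. Both N-inv arrays were just above the PBS arrays, by 0.03 ± 0.17, but the sign turned to -0.04 under quantile normalization. N-inv exceeded SC by 0.14 ± 0.17 for Cs (limma, adjusted p = 0.855), and by 0.28 without SC replicate 2. Mdh2, the mitochondrial malate dehydrogenase that closes the cycle, read 41789.4 and 42048.2 in N-inv, 35680.6 and 42287.9 in SC, and 35197.3 and 40145.6 in PBS. It lay 0.16 ± 0.17 higher in N-inv than in PBS, without overlap, and a second Mdh2 probe set did not differ (0.00).

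Idh3a, Idh3b and Idh3g encode the mitochondrial isocitrate dehydrogenase. Idh3a read 8731.6 and 11464.9 in N-inv, 10542.1 and 12071.0 in SC, and 9797.4 and 9749.3 in PBS. N-inv spanned the PBS arrays and overlapped with SC, and its log2 difference was -0.17 ± 0.19 against SC (limma, adjusted p = 0.845), or -0.08 without SC replicate 2. SC lay 0.21 ± 0.19 above PBS (limma, adjusted p = 0.85), and 0.11 without SC replicate 2. The mean over the 4 Idh3a probe sets gave 0.02 and -0.02 for those comparisons. Idh3b read 13622.5 and 14342.2 in N-inv, 13615.6 and 15682.8 in SC, and 12772.1 and 13045.7 in PBS. The PBS arrays were lowest for Idh3b, and SC differed from PBS by 0.18 ± 0.16 (limma, adjusted p = 0.844), or by 0.08 without SC replicate 2.

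Ogdh, the first subunit of the oxoglutarate dehydrogenase complex, read 6380.9 and 6692.7 in N-inv, 5797.4 and 5333.3 in SC, and 6104.5 and 6101.5 in PBS. SC was lowest and N-inv highest, without overlap, and N-inv differed from SC by 0.23 ± 0.15 (limma, adjusted p = 0.707), or by 0.17 without SC replicate 2. Sucla2, the ATP-forming subunit of succinyl-CoA synthetase, read 18161.0 and 20668.5 in N-inv, 18680.8 and 24251.9 in SC, and 17677.3 and 19658.1 in PBS. All groups overlapped for Sucla2. Its differences of -0.14 ± 0.19 in N-inv against SC and 0.19 ± 0.19 in SC against PBS were 0.05 and 0.003 without SC replicate 2. Idh3g, Suclg1, Fh1 and Mdh1 differed by 0.03, 0.07, 0.10 and 0.04 in N-inv against PBS.

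**Figure D5:**
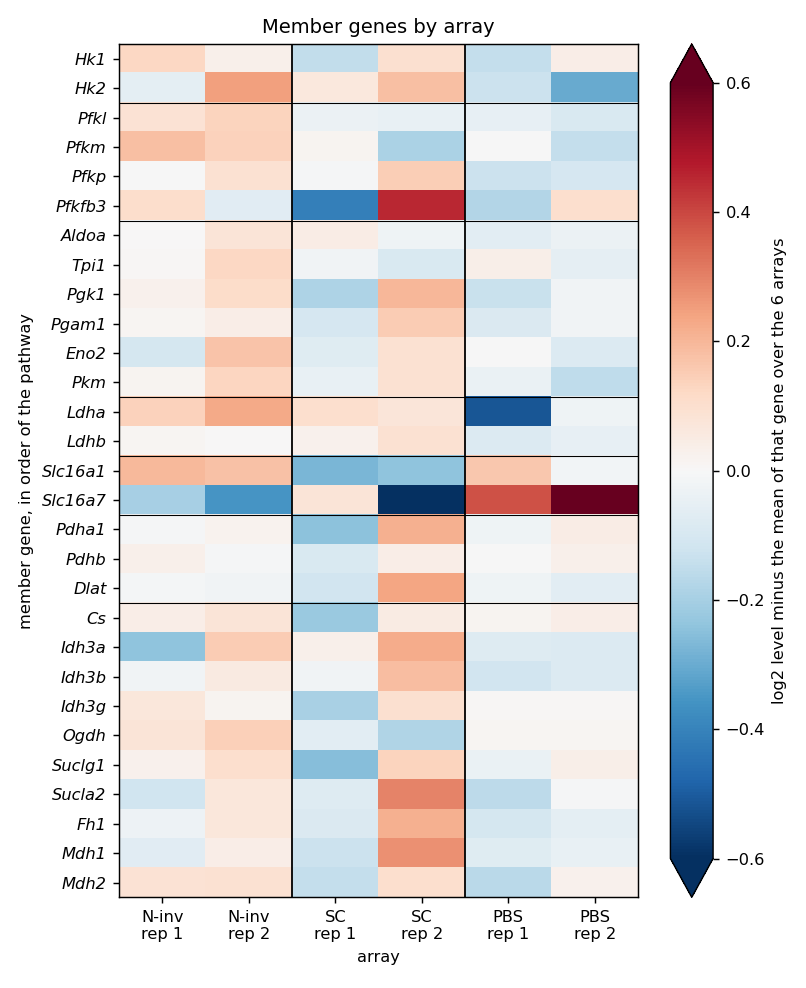
Log2 level of each of the 29 tested members minus that gene's mean over the 6 arrays (colour scale, log2 units), with genes in pathway order down the page and arrays across it, N-inv, SC and PBS from left to right. The SC arrays differ from each other along the pyruvate dehydrogenase and citric acid cycle genes, and Slc16a1 is lowest in SC. Slc16a7 is highest in PBS, the level through which it passed the filter.

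The arrays of a group were compared along the pathway. The median deviation from each gene's mean over the 13 pyruvate dehydrogenase and citric acid cycle genes was -0.01 and 0.07 in N-inv, -0.12 and 0.18 in SC, and -0.04 and 0.01 in PBS. Over the 12 glycolytic genes from Hk1 to Pkm it was 0.02 and 0.12 in N-inv, -0.04 and 0.09 in SC, and -0.08 and -0.07 in PBS. The 13 genes include Mdh1, which encodes the cytosolic malate dehydrogenase. Of these 13 genes 12 were higher on SC replicate 2 than on SC replicate 1, by a median of 0.29. All genes tested had a median of 0.18. On the values as deposited it was 9 of 13, by a median of 0.09, when all genes had -0.02.

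Several probe sets were read for 18 of the 29 members. All probe sets of a gene had the same sign for 10 of these 18 genes in N-inv against PBS, for 10 in N-inv against SC, and for 12 in SC against PBS. The second Hk1 probe set, for example, lay 0.36 higher in SC than in PBS, while the brighter one differed by 0.02. They were 0.43 and -0.10 without SC replicate 2.

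Around the pathway, 6 lists of related genes were read, 84 genes in all, of which 69 were above the filter. In limma 0 of the 69 passed in any of the 3 comparisons. In N-inv against PBS 42 lay higher and 27 lower, in N-inv against SC 40 and 29, and in SC against PBS 35 and 34. For these the 3 genes with the smallest unadjusted p in N-inv against PBS in each list, and both tested genes of gluconeogenesis, are described, and all had an adjusted p of 1.0 in that comparison.

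Of 16 genes of glucose uptake and other isozymes, N-inv exceeded PBS for 9, with a median of 0.08. Pfkfb4, a relative of Pfkfb3, read 885.1 and 997.7 in N-inv, 854.4 and 981.2 in SC, and 819.1 and 699.2 in PBS, which put N-inv 0.30 ± 0.18 above PBS on the log2 scale. Aldoc, the aldolase isozyme of astrocytes, read 54656.2 and 62911.9 in N-inv, 58481.4 and 55087.0 in SC, and 50375.4 and 50328.0 in PBS, a difference of 0.22 ± 0.16. Both genes were lowest in PBS, as Hk2 and Ldha were. Ldhd, a mitochondrial dehydrogenase of D-lactate, read 525.4 and 469.4 in N-inv, 473.5 and 505.9 in SC, and 540.9 and 646.0 in PBS. It was highest in PBS, with -0.24 ± 0.17 in N-inv against PBS.

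Of 11 genes of pyruvate entry, 6 lay higher and 5 lower in N-inv than in PBS. Pdk4, a kinase that switches pyruvate dehydrogenase off, read 1226.2 and 743.9 in N-inv, 791.8 and 3746.2 in SC, and 1466.5 and 1696.3 in PBS. Both N-inv arrays were below both PBS arrays, with a log2 difference of -0.71 ± 0.65, and the SC arrays held both the highest value and a low one. Pdhx, which binds the complex together, read 883.4 and 1000.8 in N-inv, 958.9 and 1052.6 in SC, and 814.5 and 849.4 in PBS, and PBS was lowest, at 0.17 ± 0.16 in N-inv against PBS. Pcx, pyruvate carboxylase, read 2625.7 and 2289.0 in N-inv, 2045.4 and 2199.0 in SC, and 2225.7 and 2254.0 in PBS, so N-inv was highest, at 0.13 ± 0.16 against PBS.

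Of 20 other genes of the cycle and its shuttles, N-inv exceeded PBS for 12. Suclg2, the GTP-forming alternative to Sucla2, read 2611.4 and 2710.9 in N-inv, 2002.0 and 2463.5 in SC, and 2270.0 and 1957.6 in PBS, a difference of 0.33 ± 0.18. Idh1, the cytosolic isocitrate dehydrogenase, read 8145.8 and 7921.5 in N-inv, 6390.0 and 7837.6 in SC, and 6435.2 and 7275.1 in PBS, at 0.23 ± 0.18. In both genes the N-inv arrays were above all other arrays. Sdhc, a membrane subunit of succinate dehydrogenase, read 5593.7 and 5507.4 in N-inv, 3534.5 and 3765.3 in SC, and 4963.6 and 4822.8 in PBS. N-inv was highest and SC lowest for Sdhc, with 0.18 ± 0.15 in N-inv against PBS, 0.60 ± 0.15 in N-inv against SC (limma, adjusted p = 0.445) and -0.42 ± 0.15 in SC against PBS (limma, adjusted p = 0.592). Leaving out SC replicate 2 made the last 2 differences 0.65 and -0.47.

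In the pentose phosphate pathway N-inv exceeded PBS for 4 of 7 genes. Pgls, the lactonase, read 786.7 and 1004.2 in N-inv, 631.6 and 847.0 in SC, and 685.8 and 828.9 in PBS, with overlap and 0.23 ± 0.22 in N-inv against PBS. Rpe, the epimerase, read 927.6 and 1039.5 in N-inv, 789.6 and 876.6 in SC, and 1021.6 and 1218.8 in PBS, with -0.18 ± 0.17. SC was lowest for Rpe. Taldo1, transaldolase, read 12915.9 and 10760.7 in N-inv, 8415.2 and 10400.0 in SC, and 10259.0 and 10387.4 in PBS, with N-inv highest and 0.19 ± 0.19 against PBS.

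Of 13 genes of glycogen metabolism, N-inv exceeded PBS for 10, with a median of 0.08. Gaa, the lysosomal enzyme that degrades glycogen, read 9082.4 and 12431.4 in N-inv, 6637.2 and 8588.4 in SC, and 7746.1 and 8673.7 in PBS, with 0.37 ± 0.22. Phka1, a subunit of phosphorylase kinase, read 1117.4 and 1053.7 in N-inv, 771.4 and 1072.8 in SC, and 826.2 and 970.6 in PBS, with 0.27 ± 0.21. Both genes were above PBS on both N-inv arrays. Gys1, glycogen synthase, read 671.9 and 729.8 in N-inv, 563.3 and 417.5 in SC, and 579.0 and 639.2 in PBS, with 0.20 ± 0.19 against PBS and 0.51 ± 0.19 against SC (limma, adjusted p = 0.524), and SC was lowest. The value against SC was 0.30 without SC replicate 2.

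In gluconeogenesis 2 of 6 genes were tested. Pck2, the mitochondrial phosphoenolpyruvate carboxykinase, read 1240.5 and 1193.8 in N-inv, 1083.7 and 1126.9 in SC, and 1053.4 and 907.9 in PBS, and the 3 groups did not overlap, at 0.31 ± 0.16 in N-inv against PBS. G6pc3, a phosphatase that frees glucose, read 1380.7 and 1096.9 in N-inv, 1194.0 and 867.7 in SC, and 1252.0 and 1224.9 in PBS, with overlap of N-inv and PBS.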

How the data were processed

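The authors deposited linear probe set intensities for 6 Affymetrix arrays. Their medians were 241.7 to 279.2 and their 2% trimmed means 1000 each, so the deposited intensity values had been scaled per array. The labels' protocols name TRIzol extraction and two-cycle labelling, and how probes were summarised is not given in the sources used. The fit did not include 64 control probe sets. Platform annotation gave 1 symbol for 34945 of the other 45037 probe sets, several for 932 and none for 9160.

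Each array was brought to a median of 256.2 and expressed as log2(intensity + 25.6), a scale that understates the changes of dim genes. Probe sets whose mean log2 value lay above the 40th percentile (intensity 147.7) were tested, 27022 in all. The brightest one stood for its gene. The two-sided test was eBayes after lmFit (limma 3.58.1, R 4.3.3) on 3 group means over all 6 arrays, with 3 residual and 3.72 prior degrees of freedom and Benjamini-Hochberg adjustment over all probe sets. An exact test of 2 arrays against 2 cannot go below p = 0.333. The number of arrays limits the precision. In a simulation of the 27022 probe sets on all 6 arrays, shifts were planted in N-inv, and N-inv was tested against PBS. The fit called 22 of 50 probe sets shifted by 1 on the log2 scale and 48 of 50 shifted by 2. It called 50 of 50 shifted by 3, 48 of 50 shifted by -2 and 9 of 26822 unshifted ones. All shifts were planted together, which eases the Benjamini-Hochberg threshold. The data had 0 probe sets called in that comparison, so these counts do not carry over to a single shifted member. Shifts as small as those of most members were not simulated.

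Described in full were the 8 members with the smallest unadjusted p in each comparison, 10 fixed members, and the 3 such genes of each neighbouring list in N-inv against PBS. The promoter windows shown, the dimmer Pfkp probe sets, Gfap, Aqp4, Mag, Mog and Slco1c1 fall outside that rule and were chosen after their values were seen. So were Slc1a3, Mbp, Mobp, Cldn5, Cdh5, Acta1, Alas2, Pmp2 and the named Hox genes. Members and lists were chosen with earlier results of these data known. Alternatives were scaling, pseudocount, filter, variance prior, arrays in the fit, probe set choice, replicate block and leaving out each array.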

Additional observations from a re-analysis of the deposited data

How the results depend on the processing

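Of 910 alternative values of 57 single gene results, 883 kept their sign. The other 27, in 10 genes, changed sign, none with a value above 0.21 in size before. Many of the 910 could not change sign. The filter, the intensity trend, the replicate block and the fit of only the groups compared leave a log2 difference as it was. So does leaving out an array of the third group. The 883 is therefore no measure of how stable the signs are. Under quantile normalization N-inv against PBS was -0.04 for Cs and -0.025 for Ldhb, and SC against PBS was -0.007 for Ldhb. As deposited, Cs in N-inv against PBS was -0.005 and Pkm in N-inv against SC -0.006. With the mean over a gene's probe sets, Pfkp in N-inv against PBS was -0.136, Hk1 and Idh3a in N-inv against SC were -0.113 and 0.016, and Idh3a in SC against PBS was -0.023. The other sign changes came from leaving out 1 array at a time. In N-inv against PBS these values ranged from -0.081 to 0.194 for Pfkfb3 and from -0.171 to 0.154 for G6pc3. In N-inv against SC they ranged from -0.019 to 0.225 for Hk1, -0.18 to 0.127 for Hk2, -0.369 to 0.023 for Idh3a, -0.433 to 0.429 for Pfkfb3, -0.021 to 0.116 for Pkm and -0.324 to 0.053 for Sucla2. In SC against PBS they ranged from -0.252 to 0.023 for Cs, -0.099 to 0.145 for Hk1 and -0.373 to 0.49 for Pfkfb3. The cause was not tested.

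Probe sets called in N-inv against PBS numbered 1 with an intensity trend in the variance prior and 1 with only both groups in the fit, and 2 with the trend in N-inv against SC. Leaving out 1 array gave 0 to 1 in N-inv against PBS, 0 to 1 in N-inv against SC and 0 to 9 in SC against PBS, the 9 without SC replicate 1, and none of the probe sets called was of a member. The member median then ranged from 0.062 to 0.131, from -0.058 to 0.116 and from -0.046 to 0.17 in these comparisons. In other alternatives it ranged from 0.005 to 0.083, from -0.024 to 0.045 and from -0.002 to 0.076. Members without overlap, chosen as a result after seeing the data, numbered in N-inv against PBS 11 higher and 2 lower as deposited and 6 and 3 after quantile normalization, against 18 and 1. In N-inv against SC they numbered 3 and 8 as deposited and 4 and 4 after quantile normalization, against 6 and 1. In SC against PBS they numbered 11 and 3, and 8 and 6, against 8 and 3. Over all genes the shares higher and lower in N-inv against PBS were 19.8% and 17.8% as deposited, and 19.9% and 17.4% after quantile normalization. In N-inv against SC the shares were 20.9% and 19.0%, and 20.9% and 19.3%. In SC against PBS the shares were 19.4% and 19.0%, and 19.7% and 18.3%.

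Replicate numbers were shared by the groups but did not pair them: the replicate 1 minus 2 differences correlated at 0.01, 0.04 and -0.03 between groups. With the replicate block, 0 probe sets were called. The member medians of 0.079, 0.029 and 0.058 could not change with the block, since each group holds both replicate numbers. Signal limits Slc16a3, under the cutoff of 147.7 on every array, and Slc16a7, whose N-inv mean lay under it.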
